A study of Pan troglodytes with 8 samples.

Results

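Neurons (N) were compared with basal intermediate progenitors (bIP), the dividing cells that give rise to them, by chromatin accessibility in chimpanzee cerebral organoids. The comparison took in every region of the count table that had a chimpanzee coordinate, whatever gene lay closest, which gave 211348 of 218080 regions. It set libraries N 1 and N 2 against bIP 1 and bIP 2, that is 4 of the 8 libraries. The organoids were grown from 1 induced pluripotent stem cell line, SandraA, with no genetic change or treatment named in the labels, and were collected in week 8 of culture, up to 3 days early or late. Flow cytometry separated N, labelled as BCL11B-positive neurons, bIP, apical radial glia (aRG) and basal radial glia (bRG). Each population had 2 libraries of bulk ATAC-seq, an assay in which a transposase cuts and tags open DNA. The labels give neither the sorting markers of bIP nor whether libraries 1 and 2 came from separate cultures, and the p-values therefore reflect only how far these samples differed among themselves.

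Basal intermediate progenitors leave the ventricular surface of the developing cortex, switch on the T-box factor EOMES and divide to produce glutamatergic neurons. Their daughters switch EOMES off, switch on factors such as TBR1 and BCL11B, extend an axon, migrate to the cortical plate and later build synapses and ion channels. Open chromatin at gene starts and at distant enhancers marks where transcription factors can bind, and it can open before a gene is transcribed and close long after transcription has ended.

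The bIP libraries held 26083288 and 24913928 counts, and the N libraries 31593644 and 25221705. Across regions, log2-scaled counts correlated at 0.951 between the bIP libraries and at 0.945 between the N libraries. The mixed pairs were less alike and not equally so, at 0.815 for bIP 1 with N 1, 0.711 for bIP 1 with N 2, 0.734 for bIP 2 with N 1 and 0.652 for bIP 2 with N 2. Thus bIP 1 lay nearer the neurons than bIP 2 did, and N 1 lay nearer the progenitors than N 2 did. These correlations describe regions that share libraries and depth, and regions are not independent replicates. Fits without single libraries are therefore given beside the results they change.

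After scaling, similar numbers of regions opened and closed between bIP and N. TMM scaling sets the typical change near 0 (median log2 fold change -0.01), so a near-even split is partly built in. A gain or loss shared by all regions could not be seen with any scaling tried. Of 198227 regions with enough counts to test (13121 had too few), 49623 rose (25.0%) and 44728 fell (22.6%) in N relative to bIP at an adjusted p under 0.05 by edgeR's quasi-likelihood test, or 47.6% in either direction. Among the calls of this fit, the rises were larger by median and by the number of 4-fold changes. The extremes went the other way. Among non-overlapping regions of at least 5 CPM, the largest fall was -5.60 and the largest rise 4.35. Regions that rose had a median log2 fold change of 1.89, with quartiles of 1.38 and 2.48, and regions that fell had a median of -1.56, with quartiles of -2.05 and -1.18. Changes of at least 4-fold numbered 22266 among the rises and 12107 among the falls. All N libraries lay above all bIP libraries in 73604 regions (37.1%) and below them in 73624 (37.1%). Which direction was the larger depended on the fit. Without bIP 2, 29636 regions rose and 37315 fell, and rises made up 48% of calls with RLE scaling, 48.6% with loess scaling and 46.3% with DESeq2, against 52.6% here.

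Regions that rose had low median levels in all progenitors, but they were chosen for being lower in bIP than in N. Their median accessibility was 3.49 CPM (read counts scaled to a common library size) in N, against 0.836 in bIP, 0.530 in bRG and 0.428 in aRG. Regions that fell, likewise chosen on N and bIP, had a median of 0.894 CPM in N, against 3.08 in bIP, 3.77 in bRG and 3.82 in aRG. Their median was thus somewhat higher in radial glia than in bIP, but medians do not show how each region stood. The levels in aRG and bRG come from libraries that the comparison of N with bIP did not use for its difference, and no test was run on them here. A region could also pass the count filter through its N libraries alone, so low levels elsewhere are partly built in.

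Gene starts changed least. Of 16146 regions that overlapped a gene start, 8.07% rose and 14.8% fell, and there the falls outnumbered the rises. From 1 kb to 10 kb away, 22.8% of 44489 regions rose and 23.8% fell. From 50 kb to 200 kb away, 30.9% of 44531 regions rose and 22.2% fell, and beyond 200 kb the shares were 33.5% and 20.7% of 3927. The median distance to the closest gene start was 26418 bp for regions that rose, 20298 bp for regions that fell and 16832 bp for the rest. Broad regions of more than 2000 bp also leaned downwards, with 11.7% of 6800 rising and 27.5% falling. The share of all counts located in regions overlapping a gene start was 33.98% and 35.91% in bIP and 33.57% and 33.67% in N. Both N libraries lay below both bIP libraries, but with 2 libraries a side the exact permutation test cannot go below its two-sided p of 0.333, which it gave. The share in regions over 50 kb from a gene start was 14.48% and 14.28% in bIP and 15.68% and 16.40% in N, with the same exact permutation p of 0.333. The distances are those of the deposited table, which does not state the genome build behind them.

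**Figure D1:**
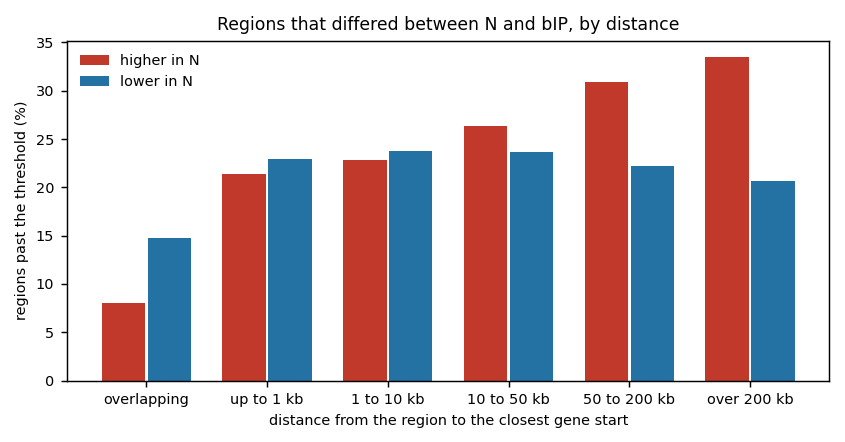
Share of tested regions (vertical axis, percent) that were higher (red) or lower (blue) in N than in bIP at an adjusted p under 0.05, by distance from the region to the closest gene start (horizontal axis). The share of rises grows from 8.07% at gene starts to 33.5% beyond 200 kb, while the share of falls is 14.8% at gene starts and between 20.7% and 23.8% elsewhere.

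The deposited consensus peaks of N and of bIP, 1 list each, were set beside these calls as a description. Peaks of aRG and bRG were not used, so "only" and "neither" refer to the N and bIP lists. Of the regions that rose, 45.2% touched a peak of N only, 20.5% touched peaks of both, 34.3% touched neither and 0.0766% touched a peak of bIP only. Of the regions that fell, 39.2% touched a peak of bIP only, 17.0% touched both, 43.7% touched neither and 0.0447% touched a peak of N only. Peak lists and counts thus seldom pointed opposite ways, in 38 and 20 regions. They describe the same populations and were not treated as independent of each other.

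To give named genes a value, counts were summed over the regions within 50 kb that had the same protein-coding gene as their closest gene, and this sum is called the gene's locus. A locus stands for open DNA near a gene start, and its CPM is scaled to all counts in loci. Of 14070 loci tested, 1705 rose (12.1%) and 2398 fell (17.0%), or 29.2% in either direction, with a median log2 fold change over all loci of -0.02. The surplus of falls depended on the fit, since 2099 loci were higher and 2016 lower when scaled on gene-start regions, and 2001 and 2102 when scaled to total counts. With the N and bIP libraries alone, 1306 were higher and 1383 lower. Both N libraries lay above both bIP libraries at 29.5% of loci and below them at 35.5%. In bulk libraries, fewer cells with an open locus and less opening per cell cannot be told apart. Without bIP 2, 926 loci rose and 1496 fell, and without N 2, 1020 rose and 1377 fell. Opposite changes near 1 gene were common. Of 14082 protein-coding closest genes, 18.1% had both a region that rose and a region that fell, 19.1% had rises only, 22.3% had falls only and 40.5% had neither.

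The 3 marker loci were all more open in bIP than in N, including those of the neuronal factors. EOMES, the defining factor of intermediate progenitors, had 214 and 209 CPM in bIP 1 and bIP 2 and 122 and 83.5 CPM in N 1 and N 2. TBR1, a factor of early-born deep-layer neurons, had 204 and 177 CPM in bIP and 132 and 122 in N. BCL11B, a factor of subcortically projecting neurons by which the N cells are labelled, had 192 and 179 CPM in bIP and 132 and 115 in N. At each locus both bIP libraries were above both N libraries. The log2 fold changes by edgeR were -1.04 ± 0.16, adjusted p = 0.0026 for EOMES, -0.58 ± 0.10, adjusted p = 0.0037 for TBR1 and -0.58 ± 0.10, adjusted p = 0.0042 for BCL11B. The loci differed in how radial glia stood to N. EOMES had mean levels of 128 and 115 CPM in aRG and bRG, the first above both N libraries and the second between them. TBR1 had 76.3 and 68.1 CPM there, below both N libraries. BCL11B had 147 and 144 CPM there, above both N libraries. Summed over its regions, the BCL11B locus was thus not more open in N, the BCL11B-positive cells by their label, than in any other population. Its single regions differed, in CPM scaled to all counts in regions. The region over the gene start had 21.5 and 21.2 CPM in N, above means of 19.5 and 18.2 in aRG and bRG. The region 2167 bp away had 13.7 and 11.7 CPM in N, below means of 21.1 and 18.7. No test of N against radial glia was run. Accessibility does not measure the protein, so this checks the label only at the level of chromatin.

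**Figure D2:**
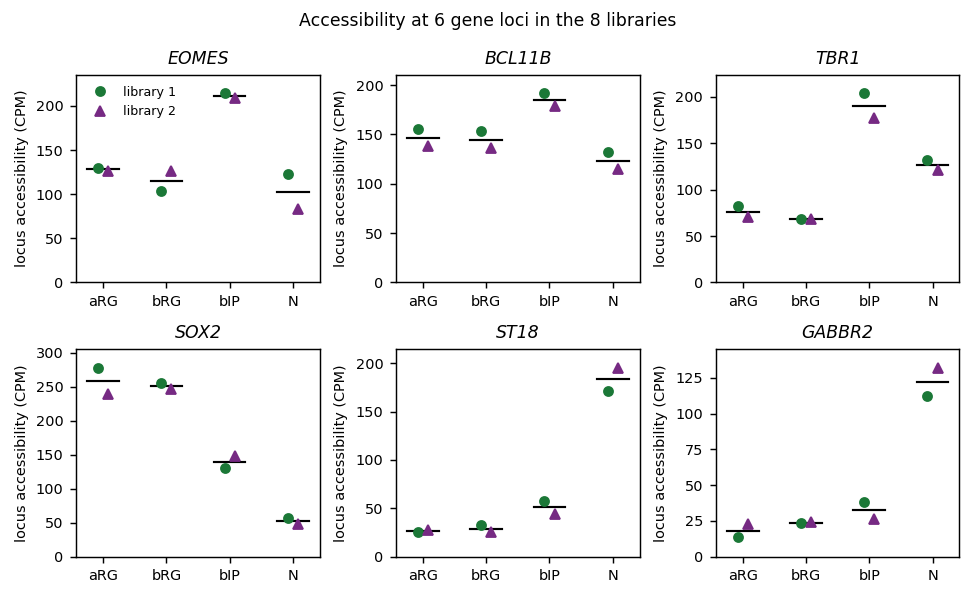
Locus accessibility in CPM (vertical axis, linear from 0) in the 8 libraries for EOMES, BCL11B, TBR1, the radial glia factor SOX2, the zinc-finger factor ST18 and the GABA-B receptor subunit GABBR2, by population (horizontal axis). Circles are library 1, triangles library 2 and bars the mean of 2. The first 4 loci are lower in both N libraries than in both bIP libraries, and ST18 (171 and 195 CPM in N) and GABBR2 (112 and 132 CPM in N) are higher.

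Single regions showed where these falls lay. Of all regions with a protein-coding closest gene, 20.5% rose and 21.4% fell. At EOMES, 5 regions were tested within 50 kb and 4 fell. The broad region over the gene start, chr3:27890461-27894611 in panTro6, had 61.2 and 59.1 CPM in bIP and 37.4 and 25.7 CPM in N, scaled to all counts in regions, and fell by 0.93 on the log2 scale (SE 0.15). The deepest fall at EOMES was in chr3:27898044-27898658, listed 5965 bp from the start, with 5.85 and 7.75 CPM in bIP and 2.86 and 1.89 in N (log2 fold change -1.51 ± 0.30). At TBR1 the region over the gene start, chr2B:47992072-47994758, had 56.4 and 46.5 CPM in bIP and 45.4 and 43.3 in N, a log2 fold change of -0.21 ± 0.13 that did not pass (adjusted p = 0.18). Both neighbouring regions fell. The nearer one, chr2B:47995527-47996213, 1403 bp away, had 14.4 and 15.7 CPM in bIP and 3.94 and 3.02 in N (-2.11 ± 0.27, adjusted p = 0.0001), and chr2B:47996495-47996992 had -1.53 ± 0.29 (adjusted p = 0.0011). At BCL11B the region over the gene start, chr14:80217737-80218567, had 22.7 and 22.8 CPM in bIP and 21.5 and 21.2 in N (-0.09 ± 0.13, adjusted p = 0.59). Of 6 further BCL11B regions, 5 fell, with chr14:80224516-80224961, 6491 bp away, falling most (-1.80 ± 0.34). No region with 1 of these 3 genes as its closest gene rose. With gene-start regions alone, the locus changes were -0.24 (adjusted p = 0.19) at TBR1 and -0.11 (adjusted p = 0.42) at BCL11B.

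**Figure D3:**
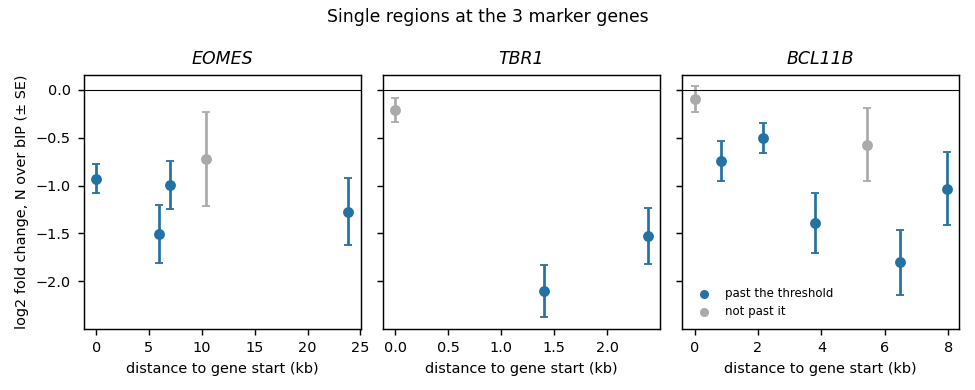
Log2 fold change of N over bIP with its SE (vertical axis) for each tested region within 50 kb of EOMES, TBR1 and BCL11B, by listed distance to the gene start in kb (horizontal axis). Blue points passed the threshold and grey points did not. All points lie below 0, and the regions over the starts of TBR1 (-0.21) and BCL11B (-0.09) lie nearest to it.

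Lists of genes by role were used to describe the rest of the genome, 25 lists in all, and each is set against the 12.1% of all loci that rose and the 17.0% that fell. Counts of regions around 1 gene stand beside all regions with a protein-coding closest gene, of which 20.5% rose and 21.4% fell. Glutamate and GABA receptors receive fast and slow synaptic signals. Of 25 measured receptor loci, 10 rose, 1 fell and 14 did not pass, with a median log2 fold change of 0.22. GABRA2, a GABA-A receptor subunit, had 4.61 and 2.87 CPM in bIP and 12 and 17.8 in N (log2 fold change 1.99 ± 0.31, adjusted p = 0.0026). GABBR2, a subunit of the metabotropic GABA-B receptor, had 38.2 and 26.5 CPM in bIP and 112 and 132 in N (log2 fold change 1.91 ± 0.24, adjusted p = 0.0012). Both were picked among loci whose N and bIP libraries did not overlap. All 8 tested regions closest to GABBR2 rose. Among the other members that rose were GRIA1, GRIN2A, GRM5, GRIN2B, GRIK5 and GRIN1, which take in AMPA, NMDA, kainate and metabotropic glutamate receptor genes. Around GRIA1, an AMPA receptor subunit, 26 of 51 regions rose and 1 fell. The kainate receptor gene GRIK2 went the other way, with 4.81 and 6.53 CPM in bIP and 1.52 and 1.79 in N (log2 fold change -1.78 ± 0.32, adjusted p = 0.0046), and over regions at any distance it had -0.38 (adjusted p = 0.19). Of 23 regions over the gene starts of the list, 10 rose and 0 fell, beside 5.34% and 12% of regions over the starts of all protein-coding genes. Farther away, 112 of 303 rose and 37 fell, beside 23.9% and 23.5% of regions away from the starts of protein-coding genes. Without bIP 2, 6 receptor loci rose.

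Voltage-gated and potassium channel genes, which set excitability, rose at 9 of 22 loci and fell at 3, with a median of 0.28. The falls were near the 17.0% of all loci. SCN1A, a sodium channel gene, had 2.55 and 1.68 CPM in bIP and 8.94 and 13.7 in N in its single region (log2 fold change 2.41 ± 0.34, adjusted p = 0.0018). KCNA1, a potassium channel gene of the axon, had 15.3 and 9.30 CPM in bIP and 37.9 and 55.8 in N (log2 fold change 1.93 ± 0.28, adjusted p = 0.0019). Non-overlap of the N and bIP libraries was a condition for picking both genes. Among the other members that rose were SCN2A, KCNQ5, SCN3A, CACNA1A, SCN3B and CACNA1B. KCNQ3, a potassium channel gene (log2 fold change -0.57 ± 0.14, adjusted p = 0.018), and CACNA2D1, which encodes an auxiliary calcium channel subunit, were among the falls. The call of KCNQ3 was lost without bIP 2 (-0.37, adjusted p = 0.10), without N 1 (-0.52, adjusted p = 0.068) and without N 2 (-0.62, adjusted p = 0.057). Without N 2, 6 channel loci rose and 1 fell, and without bIP 2, 7 rose and 1 fell.

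Synaptic vesicle and release genes rose at 7 of 22 loci and fell at 3, with a median of 0.15. Here too the falls were near the 17.0% of all loci. BSN, which encodes the active-zone scaffold bassoon, had 5.2 and 3.76 CPM in bIP and 18.0 and 15.4 in N (log2 fold change 1.90 ± 0.28, adjusted p = 0.002). SYT4, a synaptotagmin, had 76.7 and 75.6 CPM in bIP and 126 and 150.1 in N (log2 fold change 0.85 ± 0.12, adjusted p = 0.0018). UNC13A, SV2A, SYN3, SYN2 and PCLO rose as well. SLC17A6, the vesicular glutamate transporter of early excitatory neurons, had its highest level in bIP, with 133 and 109 CPM there, 85.8 and 68.4 in N and means of 17.1 and 19.5 in aRG and bRG, and fell from bIP to N (log2 fold change -0.65 ± 0.14, adjusted p = 0.011). Its call was lost without bIP 1 (-0.50, adjusted p = 0.070) and without N 2 (-0.49, adjusted p = 0.065). The fall of NLGN1, a postsynaptic adhesion gene (log2 fold change -0.37 ± 0.12, adjusted p = 0.047), was not past the threshold without aRG 2, bRG 1, bRG 2, bIP 1, bIP 2 or N 2 in turn (adjusted p from 0.051 to 0.24), and over regions at any distance its value was 0.16. Without bIP 2 or without N 2, 3 loci of the list rose, and without bIP 1 or without N 2, 0 fell.

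Genes of the neuronal cytoskeleton and other pan-neuronal genes did not move one way. Of 23 loci, 4 rose, 6 fell and 13 did not pass, with a median of -0.03 that became 0.17 with loess scaling. NEFL, a neurofilament subunit (log2 fold change 0.83 ± 0.20, adjusted p = 0.015), and MAPT, the microtubule protein tau (log2 fold change 0.38 ± 0.09, adjusted p = 0.013), rose. Both calls were lost without bIP 2 (0.68 and 0.33) and without N 2 (0.72 and 0.35), with adjusted p from 0.063 to 0.092. ELAVL4, a neuronal RNA-binding protein gene, had 269.7 and 253 CPM in bIP and 180.0 and 173 in N (log2 fold change -0.57 ± 0.07, adjusted p = 0.0013). ANK3, the organiser of the axon initial segment, had 223 and 232 CPM in bIP and 154 and 156 in N (log2 fold change -0.55 ± 0.08, adjusted p = 0.0016), but over regions at any distance its value was 0.04. Of 20 regions over the starts of these genes, 3 rose and 3 fell, beside 5.34% and 12% over the starts of all protein-coding genes. Without bIP 2 or without N 2, 1 locus of the list rose and 3 fell.

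Among 19 loci of splicing and RNA-binding regulators, 3 rose and 4 fell, with a median of 0.01. Both counts are near the shares of all loci, 12.1% and 17.0%. RBFOX1, a splicing factor of mature neurons, had 2.45 and 2.28 CPM in bIP and 10.9 and 17.9 in N (log2 fold change 2.60 ± 0.32, adjusted p = 0.0011). CELF4 had 7.94 and 7.12 CPM in bIP and 17.1 and 17.2 in N (log2 fold change 1.19 ± 0.20, adjusted p = 0.0033). MSI1, the Musashi protein of neural stem and progenitor cells, had 144 and 149 CPM in bIP and 70.3 and 54.3 in N (log2 fold change -1.23 ± 0.11, adjusted p = 0.00049), and its relative MSI2 fell (log2 fold change -0.61 ± 0.17, adjusted p = 0.03). All 4 regions of MSI1 fell. Without bIP 1 or without N 2, 1 locus of the list fell, and without bIP 2, 2 did. With a 10 kb window, the calls of RBFOX1 (1.01, adjusted p = 0.20) and CELF4 (0.29, adjusted p = 0.71) were lost, and that of MSI2 was lost without bRG 1, bRG 2, bIP 1 or N 2 in turn (adjusted p from 0.052 to 0.16).

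Intermediate progenitor genes mostly fell. Of 14 measured loci, 10 fell, 1 rose and 3 did not pass, with a median of -0.56. After EOMES, the fall was largest at NHLH1, a basic helix-loop-helix factor of cells leaving the cycle, with 362 and 365 CPM in bIP, 208 and 152 in N and means of 99.7 and 108 in aRG and bRG (log2 fold change -1.01 ± 0.14, adjusted p = 0.0015). The other members that fell were SMOC1, HES6, NEUROG1, INSM1, GADD45G, BTG2, PPP1R17 and CORO1C. Around INSM1, a zinc-finger factor needed to form basal progenitors, 20 of 28 regions fell and 1 rose. Over the starts of the list's genes, 5 of 11 regions fell and 0 rose, beside 12% and 5.34% over the starts of all protein-coding genes. Of 84 regions farther away, 45 fell and 9 rose, beside 23.5% and 23.9% of regions away from the starts of protein-coding genes. SSTR2, a somatostatin receptor, was the member that rose, from 6.18 and 6.04 CPM in bIP to 18.5 and 11.3 in N (log2 fold change 1.29 ± 0.35, adjusted p = 0.026), and its call was lost without bIP 1 (1.31, adjusted p = 0.091), bIP 2 (1.28, adjusted p = 0.11) or N 1 (0.89, adjusted p = 0.11). Without bIP 2 or without N 2, 6 loci of the list fell.

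Transcription factors of newborn neurons fell more often than they rose. NEUROD4, a proneural factor of the step from progenitor to neuron, had 245 and 277 CPM in bIP and 104 and 49.3 in N (log2 fold change -1.76 ± 0.29, adjusted p = 0.0032), and 10 of its 12 regions fell. The loci of the MYT family, 3 related zinc-finger factors of neuronal differentiation, went 3 ways. MYT1 had 497 and 444 CPM in bIP and 253 and 186 in N (log2 fold change -1.10 ± 0.15, adjusted p = 0.0015). MYT1L had a log2 fold change of 0.03 over 4 regions that did not pass, but of its 11 regions at any distance 6 rose and 1 fell. ST18 had 58.0 and 44.0 CPM in bIP and 171 and 195 in N (log2 fold change 1.85 ± 0.15, adjusted p = 0.00046), with means of 26.9 and 29.1 in aRG and bRG, and 13 of its 17 regions rose and 0 fell. The N libraries lay on opposite sides of those of bIP at MYT1 and ST18, which were picked among loci without overlap. Over gene-start regions alone, MYT1 had -0.11 (adjusted p = 0.55). Among 18 loci of the list, 3 rose, near the 12.1% of all loci, and 7 fell, with a median of -0.27. The falls included EBF1, EBF2, EBF3, SCRT2 and BHLHE22. NEUROD2 was the third that rose, beside ZEB1 (log2 fold change 0.87 ± 0.26, adjusted p = 0.038), whose call held only without N 1 among the fits without 1 library (adjusted p otherwise from 0.059 to 0.21). Without bIP 2 or without N 2, 1 locus of the list rose.

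Deep-layer genes, among them the gene that labels N, fell more often than they rose. Of 15 loci, 11 fell, 1 rose and 3 did not pass, with a median of -0.47, and TBR1 and BCL11B are among the falls. The summed level of the list was 2867 and 2984 CPM in bIP and 2137 and 2158 in N. It was 3386 to 3756 CPM in the libraries of radial glia, although TBR1 itself was lower there than in N. ETV1, a factor of layer 5, had 191 and 213 CPM in bIP and 114 and 114 in N (log2 fold change -0.82 ± 0.08, adjusted p = 0.00066), below its means of 266 and 250.2 in aRG and bRG. FOXP1, measured in 1 region, had 98.8 and 117 CPM in bIP and 67.5 and 56.1 in N (log2 fold change -0.80 ± 0.12, adjusted p = 0.002). LDB2, a cofactor of LIM-domain factors in subcortical projection neurons, rose from 46.2 and 46.8 CPM to 81.1 and 101 (log2 fold change 0.97 ± 0.13, adjusted p = 0.0015), and of its 28 regions at any distance 13 rose and 0 fell. Its rise lay away from the gene start, since with a 10 kb window it had 0.23 (adjusted p = 0.27). Over the list's gene starts, 8 of 14 regions fell and 0 rose, against 12% and 5.34% for all protein-coding genes. Farther away, 62 of 215 rose (28.8%) and 52 fell (24.2%), shares near those of all protein-coding genes (23.9% and 23.5%). The count of falls was 10 or 11 without any 1 library.

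Upper-layer genes, whose neurons are born later, rose at 4 and fell at 5 of 14 loci, with a median of -0.21. RASGRF2 had 20.2 and 20.8 CPM in bIP and 35.0 and 40.7 in N (log2 fold change 0.88 ± 0.16, adjusted p = 0.0043). POU3F2, a POU-domain factor of late progenitors and upper-layer neurons, had 111 and 141 CPM in bIP and 68.3 and 73.4 in N (log2 fold change -0.83 ± 0.12, adjusted p = 0.0019). MEF2C had 7.75 and 14.1 CPM in bIP and 3.83 and 4.08 in N over 4 regions (log2 fold change -1.46 ± 0.31, adjusted p = 0.0091), but 6 of 16 regions at any distance rose and 7 fell, and their sum gave 0.03. LPL rose (log2 fold change 0.67 ± 0.21, adjusted p = 0.041), a call lost without bIP 1 (0.45, adjusted p = 0.19) and without N 2 (0.50, adjusted p = 0.21). With a 10 kb window RASGRF2 had 0.34 (adjusted p = 0.18). Without bIP 1, 2 loci of the list rose, and without N 2, 1 did.

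Axon guidance genes fell more often than they rose, at 11 of 28 loci against 2, with a median of -0.22. EPHA4, an ephrin receptor, had 211 and 223 CPM in bIP and 126 and 90.6 in N (log2 fold change -1.0 ± 0.14, adjusted p = 0.0017). CNTN2, an adhesion molecule of pioneering axons, had 404 and 417 CPM in bIP and 259.7 and 206 in N (log2 fold change -0.82 ± 0.11, adjusted p = 0.0014), and its gene-start value alone was -0.17 (adjusted p = 0.51). SLIT3, a repellent ligand, had 55.5 and 36.5 CPM in bIP and 107 and 94.8 in N (log2 fold change 1.13 ± 0.20, adjusted p = 0.0046), and 7 of its 8 regions rose. NTNG1, a netrin-G gene, also rose (log2 fold change 0.28 ± 0.08, adjusted p = 0.027), a call lost without bIP 1, bIP 2 or N 2 (adjusted p from 0.074 to 0.15). The receptors ROBO1, ROBO2, EPHA3, EPHA7, EPHB2, PLXNA2 and UNC5A fell, as did the ligands SEMA3C and SEMA6D. Without bIP 1, bIP 2 or N 2 in turn, 1 locus of the list rose. Around SEMA3A, a locus that did not pass (0.17), 20 of 45 regions rose and 7 fell.

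Among 19 neuronal migration genes, 9 fell and 3 rose, with a median of -0.19. The rises were near the 12.1% of all loci. CXCR4, a chemokine receptor of migrating progenitors and neurons, had 153 and 179 CPM in bIP, 70.7 and 61.3 in N and means of 257 and 255 in aRG and bRG (log2 fold change -1.33 ± 0.11, adjusted p = 0.00046), and 11 of its 12 regions fell. DAB1, the adaptor through which reelin acts, went from 148 and 124 CPM in bIP to 238 and 247 in N (log2 fold change 0.84 ± 0.10, adjusted p = 0.0012). Its reelin receptor partner LRP8 fell (log2 fold change -0.86 ± 0.26, adjusted p = 0.039), and the other reelin receptor, VLDLR, had 0.04 and did not pass. The fall of LRP8 was lost without bIP 1 (-0.79), bIP 2 (-0.93) or N 2 (-0.56), with adjusted p from 0.094 to 0.19. SRGAP2 rose (log2 fold change 0.87 ± 0.23, adjusted p = 0.024) but not without bIP 1, bIP 2 or N 2 (adjusted p from 0.071 to 0.11). At its gene-start regions alone, DAB1 had 0.06 (adjusted p = 0.72). Without N 2, 5 loci of the list fell.

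**Figure D4:**
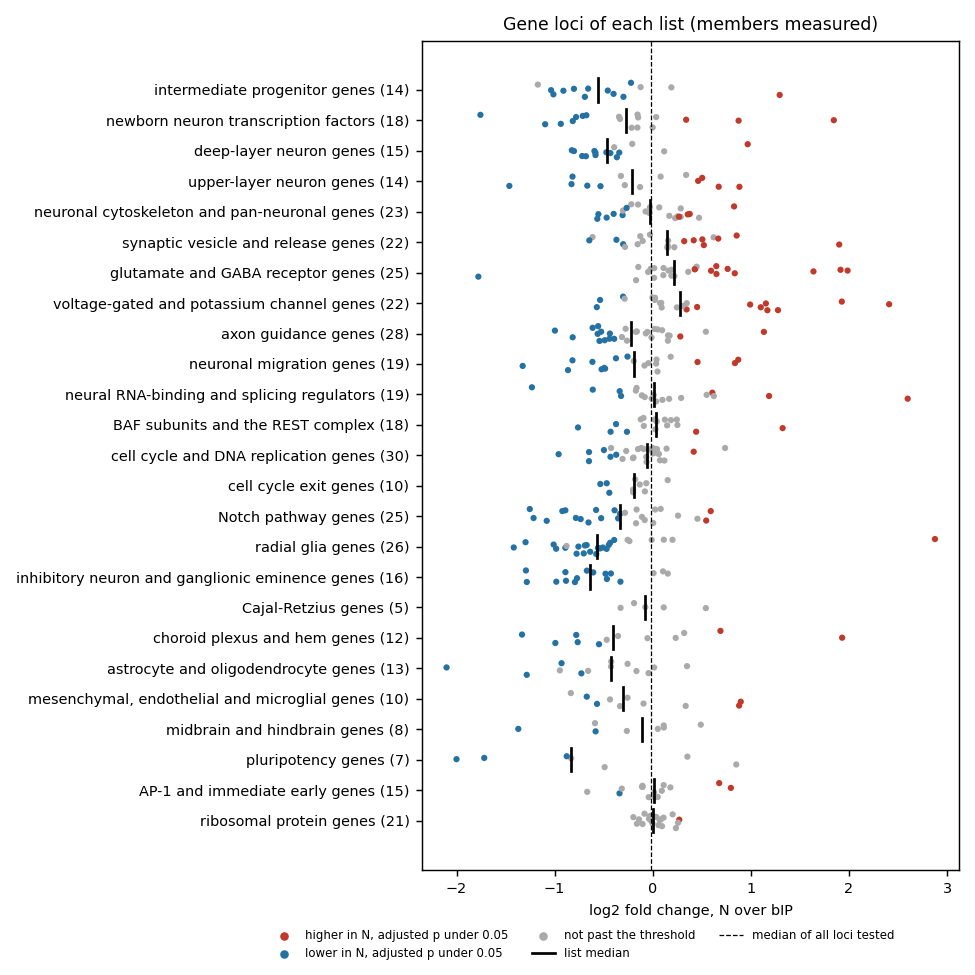
Log2 fold change of N over bIP (horizontal axis) at every measured locus of the 25 gene lists (vertical axis, number measured in brackets). Red and blue points passed the threshold upwards and downwards, grey points did not, black bars are list medians and the dashed line is the median of all loci (-0.02). Receptor and channel genes have medians of 0.22 and 0.28, and radial glia and inhibitory lineage genes have -0.57 and -0.64.

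Radial glia genes mostly fell. Of 26 loci, 19 fell, 1 rose and 6 did not pass, with a median of -0.57. Over their gene starts, 19 of 25 regions fell and 0 rose, beside 12% and 5.34% over the starts of all protein-coding genes. SOX2, which keeps neural stem cells undifferentiated, had 129.7 and 148 CPM in bIP and 56.2 and 47.5 in N, beside means of 258 and 251 in aRG and bRG (log2 fold change -1.42 ± 0.12, adjusted p = 0.00046). HOPX, a marker of basal radial glia, had 144 and 141 CPM in bIP and 63.5 and 52.0 in N (log2 fold change -1.30 ± 0.11, adjusted p = 0.00046). Around PAX6, the factor that specifies cortical radial glia, 13 of 15 regions fell and 1 rose. LIFR, a cytokine receptor subunit, was the member that rose, in 1 region, from 3.43 and 2.57 CPM in bIP to 16.6 and 27.8 in N (log2 fold change 2.88 ± 0.39, adjusted p = 0.0015). The summed level of the list was 3321 and 3644 CPM in bIP and 2544 and 2423 in N, with 0 of 26 loci at 0 counts.

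Notch signalling, by which cells that express a ligand keep their neighbours undifferentiated, fell at 13 of 25 loci and rose at 2, with a median of -0.33. Among ligands, DLL3 had 95.2 and 115 CPM in bIP, 46.0 and 44.5 in N and means of 24.0 and 23.2 in aRG and bRG (log2 fold change -1.21 ± 0.14, adjusted p = 0.001), so it was highest in bIP. DLL4 and JAG1 also fell. Among receptors and their modifiers, NOTCH1, NOTCH3, LFNG and MFNG fell. Among targets, HES1, the main repressor of neuronal differentiation, had 69.4 and 97.7 CPM in bIP, 37.8 and 32.1 in N and means of 181 and 177 in aRG and bRG (log2 fold change -1.25 ± 0.15, adjusted p = 0.0011), and HES5, NRARP and HEY2 fell too. HEY1, another target, rose (log2 fold change 0.54 ± 0.14, adjusted p = 0.02), a call lost without bIP 2 (0.50, adjusted p = 0.10) and without N 2 (0.39, adjusted p = 0.12). Over gene starts, 9 of 22 regions fell and 0 rose, beside 12% and 5.34% over the starts of all protein-coding genes. Without bIP 2, 8 Notch loci fell and 0 rose, and without N 2, 9 fell and 1 rose.

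Of 18 loci of chromatin regulators, from the BAF remodelling complex and the REST repressor complex, 2 rose and 4 fell, with a median of 0.03. These counts are near the shares of all loci, 12.1% and 17.0%. SS18L1, a BAF subunit specific to neurons, had 12.8 and 7.72 CPM in bIP and 26.4 and 25.1 in N (log2 fold change 1.32 ± 0.27, adjusted p = 0.0079), and DPF1, another neuronal subunit, had 181 and 170.4 and 231 and 247 (log2 fold change 0.44 ± 0.08, adjusted p = 0.0059). RCOR2, a corepressor of REST, had 362 and 377 CPM in bIP and 256 and 179.7 in N (log2 fold change -0.76 ± 0.15, adjusted p = 0.0079). REST, the repressor of neuronal genes, had 111 and 125 and 85.3 and 90.2 (log2 fold change -0.43 ± 0.08, adjusted p = 0.0048), but the fall lay away from its start, with 0.02 in a 10 kb window and 0.03 over gene-start regions.

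Of 30 cell cycle and DNA replication loci, 1 rose, 6 fell and 23 did not pass, with a median of -0.06 that remained below 0 under each scaling tried. The falls were near the 17.0% of all loci that fell. E2F2 had 83.3 and 98.8 CPM in bIP and 59.8 and 56.1 in N (log2 fold change -0.65 ± 0.12, adjusted p = 0.0058), and MCM2, a subunit of the replicative helicase, had 12.4 and 15.1 and 7.35 and 6.76 (log2 fold change -0.96 ± 0.30, adjusted p = 0.041). CCNE1, the cyclin that starts DNA replication, rose (log2 fold change 0.42 ± 0.12, adjusted p = 0.036). The call of MCM2 was lost without any 1 library of aRG, bIP or N (adjusted p from 0.051 to 0.17), and that of CCNE1 without either aRG library, bIP 2 or either N library (adjusted p from 0.056 to 0.19). Of the 28 regions over gene starts in this list, 4 fell and 0 rose, again near the shares of all protein-coding genes (12% and 5.34%). Without N 2, 3 loci of the list fell. Among 10 genes of cell cycle exit, 3 fell and 0 rose, led by BTG1 (log2 fold change -0.53 ± 0.13, adjusted p = 0.019) and GADD45A (log2 fold change -0.47 ± 0.13, adjusted p = 0.028). The BTG1 call was lost without bIP 2 (-0.45) or N 2 (-0.46), and the GADD45A call without bIP 1 (-0.45), bIP 2 (-0.49) or N 2 (-0.26), with adjusted p from 0.074 to 0.10. Without bIP 2 or without N 2, 1 gene of cell cycle exit fell.

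Markers of other cell types moved with the comparison, and their part in the results above was not tested. Inhibitory neuron and ganglionic eminence genes fell at 13 of 16 loci and rose at 0, with a median of -0.64. Their summed level was 1328 and 1302 CPM in bIP and 893 and 728 in N, beside 1502 to 1746 in the libraries of radial glia. DLX1, a homeobox factor of the ganglionic eminence, had 57.6 and 73.5 CPM in bIP and 26.8 and 26.7 in N (log2 fold change -1.29 ± 0.16, adjusted p = 0.0011). DLX5, SLC32A1 and SST did not pass. Without N 2, 7 of the list fell. Astrocyte and oligodendrocyte genes fell at 4 of 13 loci and rose at 0 (summed level 675 and 565 CPM in bIP, 483 and 365 in N), where SOX10 had 12.7 and 10.5 CPM in bIP and 3.51 and 1.79 in N (log2 fold change -2.10 ± 0.34, adjusted p = 0.0032). Choroid plexus and hem genes fell at 5 and rose at 2 of 12 loci (636 and 580 against 551 and 518 CPM summed). OTX2, a factor of the choroid plexus, fell from 30.2 and 25.9 to 12.1 and 10.1 CPM (log2 fold change -1.33 ± 0.18, adjusted p = 0.0015), and RSPO3, a Wnt enhancer of the hem, rose from 21.8 and 13.2 to 61.2 and 72.1 CPM (log2 fold change 1.93 ± 0.24, adjusted p = 0.0011). Without bIP 2, 1 hem gene rose.

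Other marker lists were small or mixed. Pluripotency genes fell at 3 and rose at 0 of 7 loci (116 and 136 CPM summed in bIP, 93.3 and 90.6 in N). Of these, ZFP42 had 18.3 and 44.2 CPM in bIP, 7.51 and 8.16 in N and means of 137 and 140.4 in aRG and bRG (log2 fold change -2.0 ± 0.38, adjusted p = 0.0061), and in a 10 kb window -1.49 (adjusted p = 0.13). Without bIP 1, 2 pluripotency loci rose. Midbrain and hindbrain genes fell at 2 and rose at 0 of 8 loci (378 and 328 against 325 and 283 CPM summed), led by EN2 (log2 fold change -1.37 ± 0.28, adjusted p = 0.0084), a call lost without N 2 (-1.17, adjusted p = 0.056), where 1 locus fell. Mesenchymal, endothelial and microglial genes rose at 2 and fell at 2 of 10 loci (458 and 416 against 415 and 354 CPM summed). LUM (log2 fold change 0.90 ± 0.23, adjusted p = 0.021) rose and TWIST1 (log2 fold change -0.67 ± 0.15, adjusted p = 0.013) fell, and these calls were lost without bIP 1 or N 2, and for LUM also without bIP 2 (adjusted p from 0.053 to 0.095). Without N 2, 0 of the mesenchymal list rose or fell. The 5 Cajal-Retzius loci had log2 fold changes from -0.33 to 0.54, and their summed levels were 707 and 460 CPM in bIP and 686 and 453 in N, higher in the libraries numbered 1. Without bIP 1, 1 of them rose. No locus of these lists was at 0 counts in any N or bIP library.

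Ribosomal protein and immediate early genes were used as controls. Of 21 ribosomal protein loci, 1 rose and 0 fell, beside 29.2% of all loci called, with a median of 0.00, and the riser RPL15 (log2 fold change 0.27 ± 0.08, adjusted p = 0.037) lost its call without either aRG library, either bIP library or N 2 (adjusted p from 0.056 to 0.17) and had 0.02 over gene-start regions. Of 21 regions over the gene starts of this list, 0 rose and 0 fell, beside 5.34% and 12% over the starts of all protein-coding genes. Only 18 regions of the list lay farther away, so gene starts are its nearer background. Summed levels were 1696 and 1768 CPM in bIP and 1683 and 1844 in N, which overlap. Of 15 AP-1 and immediate early genes, which respond to activity and to cell dissociation, 2 rose and 1 fell, with a median of 0.01. NPAS4, a factor switched on by neuronal activity, had 97.3 and 69.1 CPM in bIP and 146 and 143 in N (log2 fold change 0.80 ± 0.14, adjusted p = 0.0044). JUND fell (log2 fold change -0.34 ± 0.09, adjusted p = 0.024), a call lost without bIP 2 (-0.23, adjusted p = 0.13) and without N 2 (-0.30, adjusted p = 0.12).

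**Figure D5:**
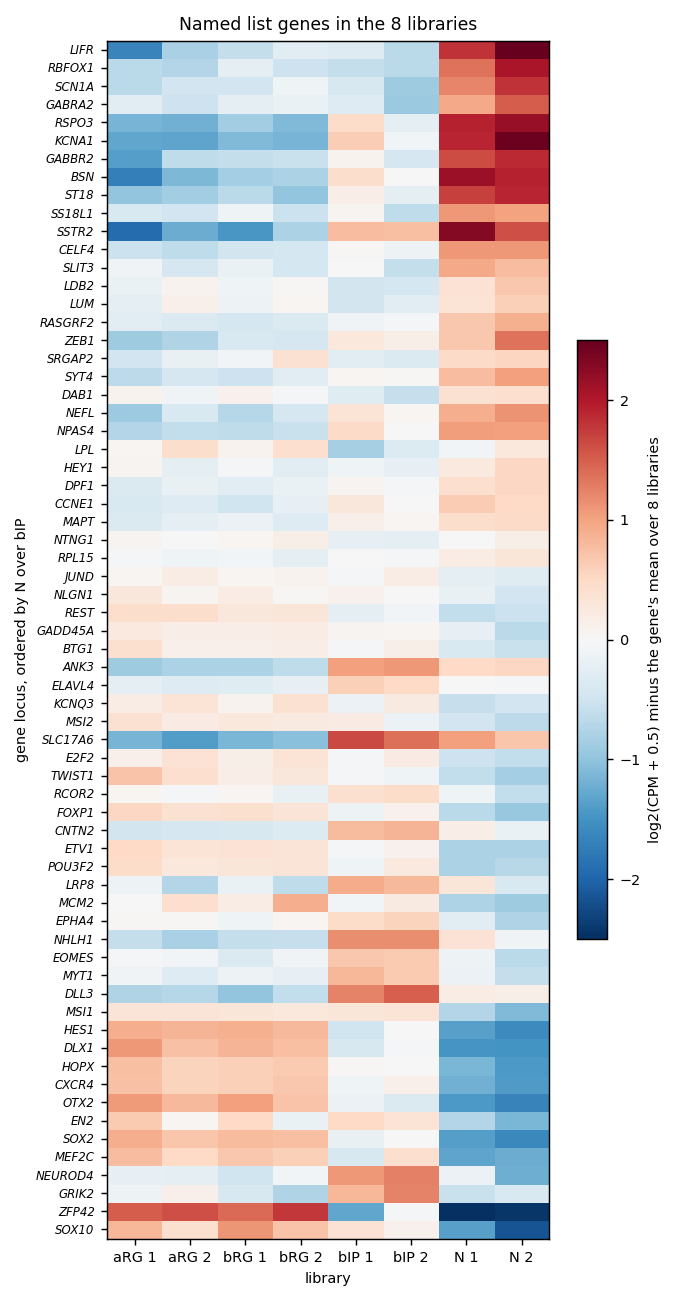
Named list genes (vertical axis, ordered by the log2 fold change of N over bIP) in the 8 libraries (horizontal axis). Colour gives log2(CPM + 0.5) of the locus minus the gene's mean over the 8 libraries, red above and blue below. LIFR (2.88) stands at the top and SOX10 (-2.10) at the bottom, and rising genes such as RBFOX1 are pale or blue in aRG, bRG and bIP.

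The largest locus changes mostly rested on 1 region each. Such a region can lie up to 50 kb from the gene start, so the change need not be at the start itself. Among loci with at least 10 CPM in the higher population, NPY2R, a neuropeptide Y receptor gene, had 6.86 and 4.85 CPM in bIP and 55.3 and 57.9 in N over 4 regions (log2 fold change 3.27 ± 0.25, adjusted p = 0.00046). NXPE2 had 3.14 and 4.25 CPM in bIP and 30.2 and 70.4 in N over 2 regions (log2 fold change 3.76 ± 0.45, adjusted p = 0.001), and LIPN, a lipase gene, had 3.04 and 2.77 and 15.6 and 37.1 over 4 (log2 fold change 3.17 ± 0.44, adjusted p = 0.0017). KNTC1 (3.78 ± 0.62), OR10Q1 (3.58 ± 0.41), SPRR2B (3.41 ± 0.45), PSMB1 (3.20 ± 0.25) and ST7L (3.16 ± 0.49) completed the 8 largest rises, each in 1 region. All 8 lay between 0.495 and 6.87 CPM in each bIP library and between 8.46 and 70.4 CPM in each N library.

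The 8 largest falls were all in 1 region each, again not necessarily at the gene start, and fell into a pair of patterns. MPP7, a scaffold gene of cell junctions, had 36.8 and 40.7 CPM in bIP, 3.35 and 3.18 in N and means of 10.7 and 9.75 in aRG and bRG (log2 fold change -3.56 ± 0.21, adjusted p = 0.0002), so it was most open in bIP. ADAM18 (-3.75 ± 0.42), CPVL (-3.20 ± 0.33), HNRNPK (-3.18 ± 0.34) and NAIP (-3.46 ± 0.38, a gene with near-identical copies in human that was not checked for copies in panTro6) were also most open in bIP. TKFC had 8.53 and 21.2 CPM in bIP, 1.04 and 0.995 in N and means of 68.4 and 67.1 in aRG and bRG (log2 fold change -3.85 ± 0.50, adjusted p = 0.0014). CD48 (-3.72 ± 0.51) and CYP2C8 (-3.66 ± 0.35) were likewise highest in radial glia. At TKFC and CD48 the bIP libraries stood apart, with the bIP 1 value below that of bIP 2, as was also so at ZFP42.

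Single regions changed further than loci. The largest rise was at chr11:110429909-110430611 in panTro6, 32262 bp from NXPE2 as listed, with 0.254 and 0.614 CPM in bIP and 6.02 and 11.7 in N (log2 fold change 4.35 ± 0.54, adjusted p = 8.4e-05). The region chr4:152685487-152686463, 8729 bp from FGG, went from 0.436 and 0.844 CPM to 7.26 and 17.4 (4.26 ± 0.47). The largest fall was at chr18:44976993-44977879, 71505 bp from the pseudogene HNRNPA3P16, with 4.18 and 6.41 CPM in bIP and 0.0621 and 0.157 in N (-5.60 ± 0.53, adjusted p = 2.3e-05). The most open region among the 6 largest falls, chr4:165737737-165738799, 71923 bp from AC105148.1, went from 20.2 and 37.5 CPM to 0.869 and 0.589 (-5.27 ± 0.29) and had a mean of 50.9 CPM in bRG. The other 4 rises had log2 fold changes from 4.17 to 4.30 and the other 4 falls from -5.02 to -4.87. Between the N and bIP peak lists, all 6 rises touched a peak of N only and all 6 falls a peak of bIP only. Peaks of radial glia were not looked at.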

How the data were processed

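Sorted cells of chimpanzee cerebral organoids were assayed by bulk ATAC-seq. The deposited table holds whole-number read counts per region for 8 libraries, unscaled, and, per the file headers, each region's closest gene and its distance in bp. Names listed in the submitters' processing notes are bcl2fastq 2.20.0, MACS2, panTro6 and hg38. The sources used here do not give the aligner, the read counter or how consensus peaks were pooled. The deposited peak lists give a -log10 q-value per peak, per the file headers. They were compared with the regions by 1 shared base, and also by 0.5 of the region's length and with a -log10 q-value of at least 10.

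Rows without a chimpanzee coordinate (6725, total count 0) and 7 repeats were left out. Coordinates are panTro6, counted from 1. Regions on human chromosomes X and Y numbered 0. A locus sums regions within 50 kb whose closest gene matched a protein-coding symbol in a RefSeq table (assembly NHGRI_mPanTro3-v2.0), which served for names alone. Of 41376 closest genes, 14206 matched.

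Differences of N from bIP were tested with edgeR 4.0.16 (R 4.3.3; quasi-likelihood F-test, robust, TMM scaling, filterByExpr), fitting the 8 libraries together by population alone, at a Benjamini-Hochberg adjusted p under 0.05 over all regions or all loci. "Rose" and "fell" refer to these calls. The SE is the log2 fold change divided by the square root of F. For regions, the common biological coefficient of variation was 0.216, with 4 residual degrees of freedom and 8.62 from the prior. CPM values use TMM-scaled totals, and correlations a prior count of 2. Library totals were 24913928 to 34845193 counts, and depth limits the regions with few counts most. The fit was also run on simulated counts, with an outcome that is not reported here. Alternatives tried were other scalings, filters and windows, DESeq2 1.42.0, a replicate block, a null fold change of 1.5 and leaving out each library.

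The comparison and the 25 lists of 464 genes were chosen with earlier results of these data known. Of the listed genes, 435 had a tested locus and 29 did not. Named from each list were up to 2 rises and 2 falls (1 each for other cell types and controls), the largest among calls whose N and bIP libraries did not overlap. The 3 markers, the 8 largest locus and 6 largest region changes each way (at least 10 and 5 CPM) and the 6 closest genes with most rises or falls were also named. Other names were added after their values were seen, and a few genes counted in the lists are not reported here by name. No sequences are printed, since no panTro6 genome was used here.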

Additional observations from a re-analysis of the deposited data

How the results depend on the processing

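Counts of regions and loci stayed within 1.5 times their values under every other scaling, without a filter, with a filter of 1 CPM in 2 libraries and with DESeq2 (36690 regions higher and 42510 lower, 1616 loci higher and 2338 lower). With the N and bIP libraries alone, 1306 loci were higher and 1383 lower. Named loci that lost their call in that fit included ZEB1, LPL, NLGN1, NTNG1, MSI2, MCM2, BTG1, GADD45A, LUM, TWIST1, JUND and RPL15. Against a null fold change of 1.5, 504 loci were higher and 495 lower. Over gene-start regions alone, where 10361 loci could be tested, 517 were higher and 1276 lower. Leaving out each library in turn gave 29636 to 49171 regions higher, 31324 to 43051 lower, 926 to 1672 loci higher and 1377 to 2558 lower. The difference in the share of counts over gene starts, -1.33 points, ran from -2.29 to -0.36. The direction turned for REST (0.0169 in a 10 kb window and 0.0296 over gene starts), and at any distance for MEF2C (0.0255), ANK3 (0.0387) and NLGN1 (0.162). The cause was not tested. Of 86 loci that the naming rule took in, 37 kept direction and call in every setting that gave a value and 49 lost the call in at least 1.

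With a replicate block, 56454 regions were higher and 52953 lower, and 2517 loci higher and 3544 lower. These include all 1705 and 2398 loci called without it. The differences between libraries 1 and 2 correlated at 0.242 between N and bIP and at 0.121 to 0.332 over all 6 pairs of populations. The labels tie the numbers to no shared culture or day, and 2 numbers are too few to settle the pairing, so the block is given here only. Loci said not to have passed refer to the fit without it.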

Other observations

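Some genes had changes spread over many regions, of which 25.0% rose and 22.6% fell over the whole table. By number of rising regions at any distance, the names Y_RNA (541 of 2044), Metazoa_SRP (98 of 393) and U3 (76 of 247) led, but each is shared by many copies on 16 to 24 chromosomes. They also led the falls, with 493, 87 and 54. They led by having many regions, since the shares that rose were 26.5%, 24.9% and 30.8%, and the shares that fell 24.1%, 22.1% and 21.9%. Next by rises came the pseudogene KRT8P44, where 35 of 64 regions rose and 4 fell, AUTS2, a gene of neuronal development in which 32 of 126 rose (25.4%, near the share of all regions) and 22 fell, and U6 (32 of 94). Next by falls came AC093418.1 (28 of 84), U6 (24) and AC073873.1 (23 of 112). Among protein-coding genes, chosen after their values were seen, BCHE, which encodes butyrylcholinesterase, had 28 of 37 regions that rose and 0 that fell. CNTN3, a contactin adhesion gene, had 25 of 47 that rose and 5 that fell, and GRIP1, which encodes a scaffold of AMPA receptors, had 20 of 38 and 4. In the other direction, LRIG1, a negative regulator of growth factor receptors, had 20 of 32 regions that fell and 0 that rose, and BMPR1B, a BMP receptor gene, had 20 of 49 and 4. RNF217 had 21 of 52 that fell and 8 that rose.

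Regions were also described by the species in which they had an identifier. Of 186364 tested regions with chimpanzee, human and gorilla identifiers, 25.6% rose and 22.4% fell. Of 8732 regions with chimpanzee and human identifiers only, 16% rose and 25.3% fell, and of 2096 with a chimpanzee identifier only, 17.1% rose and 23.5% fell. Of 1035 with chimpanzee and gorilla identifiers only, 23.5% rose and 21.4% fell. The sources used here do not say how regions of the 3 species were matched.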
